A study of Komagataella phaffii GS115 with 2 samples.

Results

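The genes KAR2, PDI1, ERO1 and HAC1, of protein folding in the endoplasmic reticulum (ER) and the unfolded protein response, were examined for H3K36me3 in Komagataella phaffii GS115, a methylotrophic yeast long known as Pichia pastoris and widely used to secrete recombinant proteins. KAR2 is PAS_chr2-1_0140, PDI1 is PAS_chr4_0844, ERO1 is PAS_chr1-1_0011 and HAC1 is PAS_chr1-1_0381, and they are 4 of the 5040 genes with a value. They were chosen by these identifiers and not by their signal, though with earlier results of these data known. The identifiers come with no gene name or protein sequence in the tables used, so the names are those under which the genes were selected and were not checked against sequence. Chromatin immunoprecipitation and sequencing (ChIP-seq) with an H3K36me3 antibody was done on formaldehyde-fixed wild-type GS115 cells from shaken cultures. All cells were of 1 group, with no allele, stress treatment, carbon source or time point in the labels. Of the 2 libraries the labels list, 1 column of FPKM values (fragments counted per unit of gene length, scaled to a fragment total) was analysed. It was deposited with replicate 1, and the sources used here do not say whether it also holds the other library. There is therefore no replicate error, no test was possible, and each comparison below is between genes within this column.

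The ER is where secreted proteins enter the secretory pathway, fold and form disulfide bonds. KAR2 encodes the Hsp70 chaperone of the ER lumen, known as BiP in mammals. PDI1 encodes protein disulfide isomerase, which introduces and rearranges disulfide bonds, and ERO1 encodes the oxidase that returns PDI1 to its oxidised form. HAC1 encodes the bZIP transcription factor of the unfolded protein response. In Saccharomyces cerevisiae, misfolded protein in the ER leads the kinase and nuclease Ire1 to splice HAC1 mRNA, and the Hac1 protein then raises transcription of KAR2, PDI1 and ERO1 among other targets. H3K36me3 is laid down in that yeast by Set2, a methyltransferase that travels with elongating RNA polymerase II, so it lies over the bodies of transcribed genes. FPKM was deposited here per gene, and the sources used do not state the interval over which fragments were counted.

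The folding genes KAR2, PDI1 and ERO1 had H3K36me3 signals near that of a typical gene, and HAC1 had a higher one. KAR2 had 134 FPKM, PDI1 had 141 FPKM, ERO1 had 146 FPKM and HAC1 had 167 FPKM. The median of all 5040 genes was 138 FPKM, with quartiles at 126 and 148 FPKM. The 3 folding genes thus lay between the quartiles, as 50.0% of all genes do, and HAC1 lay above the 95th percentile of 164 FPKM. None of the 4 genes was more than 25% above or below the median, a distance that 8.27% of all genes passed (2.22% of all genes above the median and 6.05% below it). These values are not divided by input or histone H3, so each also carries unenriched background, nucleosome density and copy number, and the part of these in the differences was not tested.

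**Figure D1:**
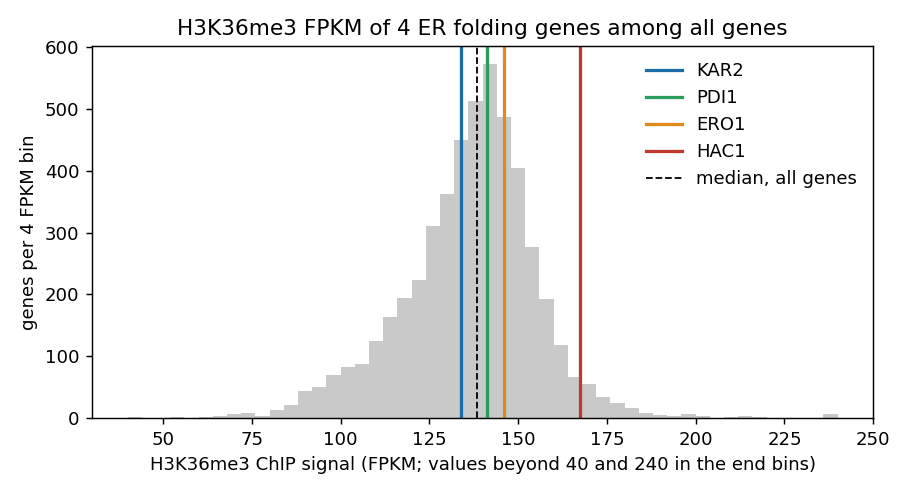
Histogram of H3K36me3 FPKM over 5040 genes in bins of 4 FPKM, with a coloured line at each of the 4 genes and a dashed line at the median of 138 FPKM. KAR2, PDI1 and ERO1 sit in the central peak between 134 and 146 FPKM, and HAC1 sits in the upper tail at 167 FPKM.

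Among the folding genes, the chaperone gene had the lowest value. KAR2, a gene of 2037 nt on chromosome 2, was at 0.97 times the median of all genes, higher than 39.8% of the other genes. PDI1, a gene of 1555 nt on chromosome 4, was at 1.02 times the median and higher than 57.8% of the other genes. The isomerase gene is 1 of 393 genes whose listed length is not a multiple of 3, so its length is not that of an uninterrupted reading frame. ERO1, a gene of 1584 nt on chromosome 1, was at 1.06 times the median and higher than 71.2% of the other genes. From the lowest to the highest of these 3 genes the ratio was 1.09, smaller than the ratio of 1.17 between the quartiles of all genes. The order of KAR2, PDI1 and ERO1 thus rests on differences of 7.27 FPKM between KAR2 and PDI1 and 4.84 FPKM between PDI1 and ERO1, which have no replicate error to be set against.

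HAC1, the transcription factor gene, stood above the 3 genes that encode the folding machinery. HAC1 is a gene of 996 nt on chromosome 1 and ranked 183 from the top of 5040 genes, higher than 96.4% of the others. It was at 1.21 times the median of all genes, a log2 difference of 0.27 in FPKM + 1. It is the 1 member among the highest 5.00% of genes. HAC1 had 1.15 times the FPKM of ERO1, 1.19 times that of PDI1 and 1.25 times that of KAR2. Of all other genes, 56.6% had values between those of KAR2 and HAC1.

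Gene length was taken into account because the spread over genes was wider near the length of HAC1, the shortest of the 4, than near that of KAR2, the longest. Each gene was set beside the 200 genes nearest to it in length. Among genes of 1947 to 2136 nt, which had a median of 140 FPKM and an SD over genes of 12.8 FPKM, KAR2 was exceeded by 149 of 200. KAR2 was thus at percentile 25.5 among genes of its own length, against 39.8 among all genes. PDI1 and ERO1 lay nearer the middle of their length classes, with 88 and 62 of 200 genes above them. Both classes had medians of 139 FPKM.

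HAC1 was exceeded by only 3 of the 200 genes nearest in length, which ranged from 963 to 1032 nt. Those genes had a median of 137 FPKM, quartiles at 125 and 147 FPKM and an SD over genes of 18.3 FPKM. HAC1 was at 1.22 times their median, and the 95th percentile of the class was 162 FPKM. The ratio of the highest to the lowest member was 1.28 after each value was divided by the median of its own length class, against 1.25 before.

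**Figure D2:**
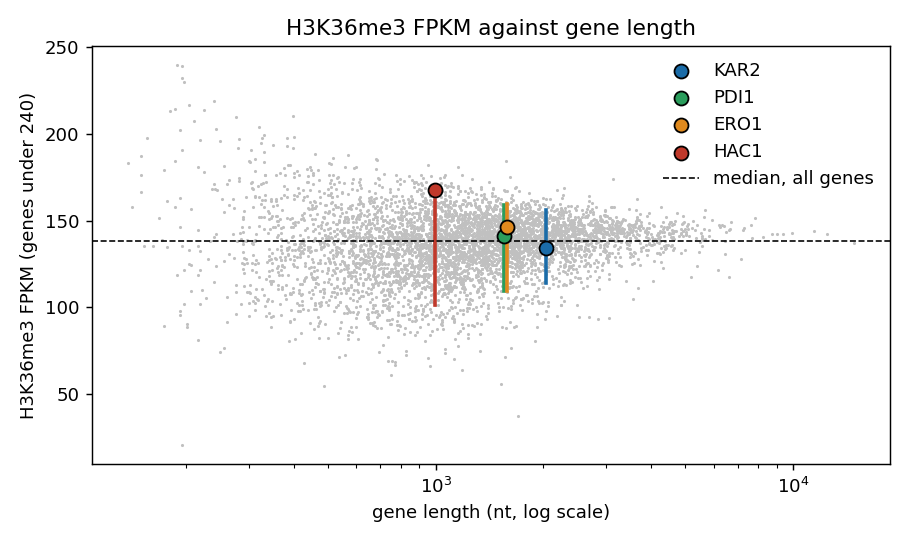
H3K36me3 FPKM of each gene under 240 FPKM against gene length in nt on a log scale, with each of the 4 genes as a large point and a coloured bar from the 5th to the 95th percentile of the 200 genes nearest to it in length. HAC1 at 167 FPKM lies above the end of its bar at 162 FPKM, while KAR2, PDI1 and ERO1 lie inside theirs.

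Each gene was then compared with the genes next to it in file order, which is also their order in the RefSeq gene table. None of the 8 adjacent genes overlaps its member in that table, and none has a name there. A gene without a value here could still lie between a member and the gene given as adjacent. Between members and adjacent genes, the identifiers skip a number only before HAC1, from PAS_chr1-1_0379 to PAS_chr1-1_0381. KAR2, on chromosome 2, lay between 2 adjacent genes that were both within the quartiles of all genes. The gene before it, PAS_chr2-1_0139, had 141 FPKM and the gene after it, PAS_chr2-1_0141, had 145 FPKM. The chaperone gene was thus slightly lower than both, at 0.94 times their mean. The 10 genes within 5 places of KAR2 ranged from 123 to 163 FPKM, higher than 20.5% to 94.6% of other genes, with a median of 142 FPKM. None was more than 25% from the median of all genes, a distance that 8.27% of all genes passed. KAR2 was higher than 4 of these 10 genes.

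ERO1 also resembled its surroundings. The gene before it, PAS_chr1-1_0010, had 149 FPKM, and PAS_chr1-1_0012, the gene of 420 nt that follows it, had 132 FPKM. The oxidase gene fell between them and was at 1.04 times their mean. Its 10 flanking genes ranged from 109 to 157 FPKM, with a median of 146 FPKM, the level of ERO1 itself to 3 digits. ERO1 exceeded 5 of the 10.

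PDI1 lay between a gene far above and a gene far below the typical level. PAS_chr4_0843, the gene of 384 nt before it, had 193 FPKM, higher than 99.4% of other genes. PAS_chr4_0845, the gene of 540 nt after it, had 87.8 FPKM, higher than only 1.17% of other genes. PDI1 itself, at 141 FPKM, was close to the mean of these 2 genes (140 FPKM), but neither of them is near that mean. An arrangement with 1 adjacent gene more than 25% above the median and the other more than 25% below it occurred for 20 of 5032 genes with 2 neighbours, or 0.397%. This arrangement was counted after the values around PDI1 had been seen, and over genes of all lengths. Of the 10 genes within 5 places of PDI1, PAS_chr4_0850 at 96.8 FPKM was the third that lay more than 25% from the median, and the flank had a median of 133 FPKM.

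HAC1 differed most from its surroundings: its own value was high and both of its neighbours were low. PAS_chr1-1_0379, the gene of 1895 nt before it, had 80.4 FPKM, higher than only 0.576% of other genes. PAS_chr1-1_0382, the gene of 576 nt after it, had 119 FPKM. HAC1 at 167 FPKM had 2.08 times the value of the first and 1.41 times that of the second. It was at 1.68 times their mean of 99.5 FPKM, a log2 difference of 0.75. Only 7 of the 5032 genes with 2 neighbours had a higher ratio to their neighbours. Of all these genes, 6.04% were more than 25% above the mean of both neighbours and 5.13% were more than 25% below it. HAC1 was the 1 member of 4 above that limit, and no member was below it. Of the 200 genes nearest to HAC1 in length, 199 have 2 neighbours, and none of these had a ratio as high.

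**Figure D3:**
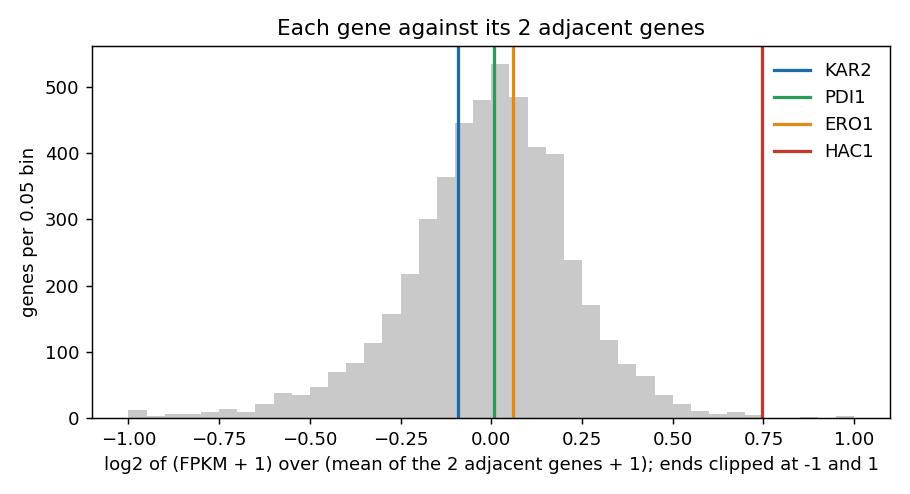
Histogram over 5032 genes of the log2 ratio of a gene's FPKM + 1 to that of the mean of its 2 adjacent genes, in bins of 0.05, with coloured lines at the 4 genes. KAR2, PDI1 and ERO1 lie in the central peak, at -0.091, 0.0076 and 0.059, and HAC1 lies at 0.75 in the far upper tail.

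The low values around HAC1 went beyond the adjacent pair of genes. Within 5 places on each side, 9 of 10 genes were below the median of all genes. At least 9 of 10 flanking genes were below it at 1.42% of the 5000 genes with such a flank. The flank ranged from 80.4 to 154 FPKM with a median of 116 FPKM. Flank medians lower than this were found at only 0.42% of genes. Besides PAS_chr1-1_0379, the genes PAS_chr1-1_0385 at 100.4 FPKM and PAS_chr1-1_0386 at 82.8 FPKM were more than 25% below the median. The exception was PAS_chr1-1_0377, a gene of 1572 nt 3 places before HAC1, at 154 FPKM. These measures of the wider flank were chosen after the values around HAC1 had been seen. They take no account of the lengths of the flanking genes.

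HAC1 was the highest gene of this stretch and exceeded all 10 flanking genes, as 8.78% of all genes do. Among the genes of the highest 5.00% this was usual, holding for 169 of the 246 with such a flank, or 68.7%. Its ratio to the flank median was 1.44, and 25 of 5000 genes had a higher one, while 2.80% were more than 25% above their flank median. Measured against 2 genes on each side, with a mean of 114 FPKM, the ratio was 1.46, and 4.48% of genes were more than 25% above that mean. HAC1 thus stayed more than 25% above its surroundings by each of these measures, with the largest ratio against the adjacent pair, where PAS_chr1-1_0379 is the low value. The 251 genes of the highest 5.00% that have 2 neighbours had a median ratio to their neighbours of 1.22, and 4 of them exceeded HAC1 in that ratio. The flank medians of genes of that class had a median of 140 FPKM, and 4 of 246, HAC1 included, were as low as 116 FPKM. Over all genes, 0.42% had a flank median below that of HAC1, so low flanks were not rarer in this class. That limit is HAC1's own flank median, taken after it was seen, so HAC1 is counted by construction.

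**Figure D4:**
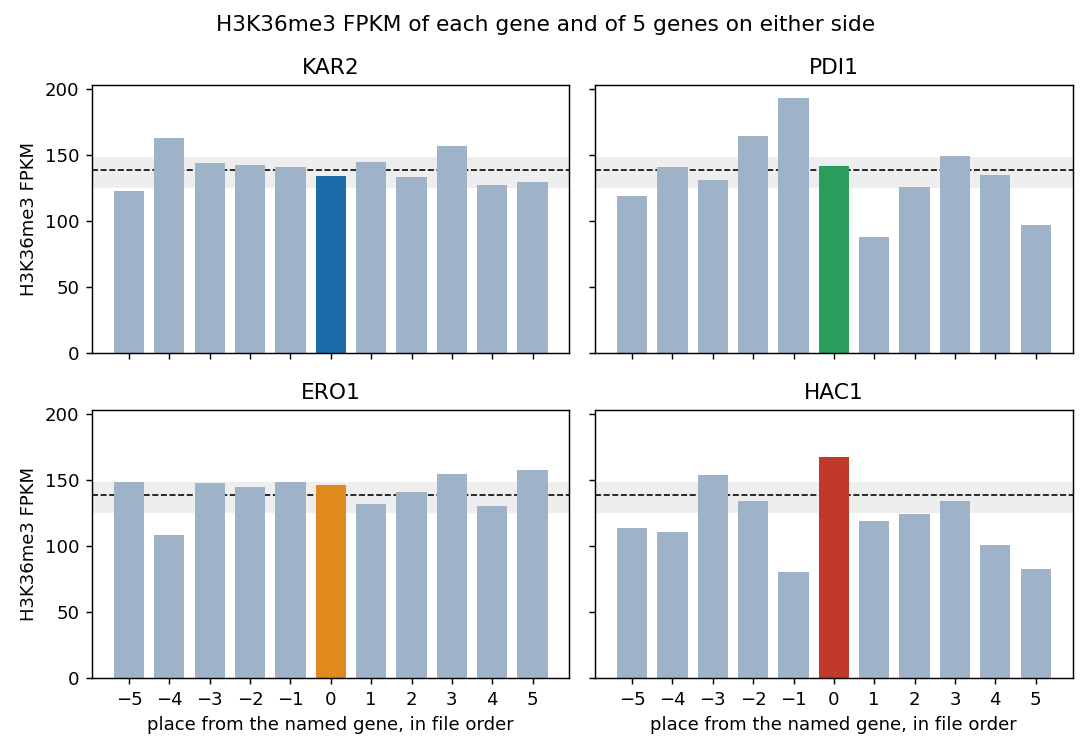
H3K36me3 FPKM of each of the 4 genes (coloured bar at place 0) and of the 5 genes on either side in file order (grey-blue bars), with a dashed line at the median of all genes and a shaded band between their quartiles. KAR2 and ERO1 are level with their surroundings, PDI1 falls between adjacent genes at 193 and 87.8 FPKM, and HAC1 at 167 FPKM rises above a flank with a median of 116 FPKM.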

How the data were processed

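FPKM values per gene were calculated and deposited by the authors as 1 column of a table, per the file headers. Per the submitters' processing notes, tools in use included Bowtie2, SAMtools, MACS2, deepTools, Trimmomatic 0.39 and FastQC 0.12.1, with no role stated. No source used here gives the counter, the build or the annotation. All 5040 identifiers matched the RefSeq gene table of assembly ASM2700v1, used for order, overlap, chromosome and length, with no coordinate printed. FPKM times these lengths summed to 100.1% of the total that scaling to fragments within these genes gives. A search for a total that turns the values into whole reads picked its best total on 300 genes of low FPKM times length. At that total 9.66% of all genes were whole to 0.05 reads, where any 1 total gives 10% by chance. The share among the 300 genes was not recorded, and the search steps are coarse for genes with many reads. The search therefore cannot show that no such total exists, and the depth is unknown. Log2 ratios used a pseudocount of 1 and no filter. A gene was counted as apart when more than 25% from the reference level. Members and lists were chosen with earlier results of these data known. The genes named were fixed as the members, the adjacent genes and any gene within 5 places that was over 25% from the median. PAS_chr1-1_0377 was added after its value was seen. The planned comparisons with other pathway genes and with related proteins were not run, because the tables used pair no identifier with a product or sequence. The code for the 25% limit and for the neighbour ratio was run on shuffled values with some genes raised or lowered. This checks the code only, and the flank counts were not tested in this way. Python 3.11.15, numpy 2.4.6, pandas 2.3.3 and matplotlib 3.10.9 were used.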

Additional observations from a re-analysis of the deposited data

How the results depend on the processing

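No paired analysis was possible because only 1 column of values was used, and leaving out a replicate was not run for the same reason. The log2 ratio of HAC1 to its neighbours moved from 0.75 to 0.55 with 2 genes on each side, to 0.52 with the median of 5 on each side and to 0.90 with a length-weighted mean, each of which gives the low adjacent gene PAS_chr1-1_0379 another weight. The spread from the highest to the lowest member moved from 1.25 to 1.09 without HAC1, a setting added after the data were examined. Leaving out the highest member can only lower this ratio. The other 46 of 50 values moved by less than 0.1 on the log2 scale or by less than 1.1 times. Among them, 2 near 0 changed sign: PDI1 against its neighbours was -0.014 with 2 genes on each side, and ERO1 was -0.0015 against the median of 5 on each side. No gene was under 1 FPKM, so that filter tests nothing. With the depth unknown, counting error could not be set beside any value.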
